A study of Mus musculus with 10 samples.

Results

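Transcripts of 38 genes that carry out the response to low oxygen and the breakdown of glucose were followed in whole lungs of mouse pups at postnatal day 6 (P6). The genes were picked by symbol from a table of 35275 genes, from lists of hypoxia-inducible factor (HIF) subunits and oxygen sensors (5 genes), hypoxia-induced targets (13 genes), glucose entry with the upper steps of glycolysis (12 genes), and the lower steps of glycolysis with the fate of pyruvate (8 genes). All 38 passed the filter on low values (1 FPKM or more in at least 4 libraries), as did 13610 genes in all. FPKM are fragments per kilobase of transcript scaled to the mapped fragments of a library, so that levels can be compared between genes.

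Dll4+/- pups of the CD1 strain, in which 1 allele of Dll4 carries a lacZ reporter in its place, were compared with Dll4+/+ littermates at the same age, with no treatment named for either genotype. Dll4 encodes an endothelial ligand of Notch receptors, and the allele is lost in every cell of the pup rather than in the endothelium alone. The study asked how losing 1 copy affects the lung while alveoli form. Poly-A RNA of right lungs was sequenced, and FPKM of 4 Dll4+/- pups (replicates 1 to 4) and 4 Dll4+/+ pups (replicates 3 to 6) were used, each genotype with 2 pups labelled male and 2 labelled female. Dll4+/+ replicates 1 and 2 were not analysed here.

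HIF is a pair of proteins, an alpha subunit and the constant partner ARNT. With oxygen present, prolyl hydroxylases (EGLN proteins) mark the alpha subunit, the VHL protein binds the mark and the subunit is destroyed. When oxygen falls the subunit persists, enters the nucleus and binds short motifs with the core ACGTG or GCGTG near genes for glucose transporters, glycolytic enzymes, lactate export and blood vessel growth. Glycolysis splits glucose into pyruvate, which lactate dehydrogenase can turn into lactate or which can enter mitochondria. Control of the alpha subunits themselves is largely at the protein level, which RNA does not measure.

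To show the letters that the pathway reads, promoter windows of 5 members are printed from the RefSeq table of build GRCm38.p6, each 300 bases long with 250 before and 50 from the transcript start on. Hif3a, Ankrd37, Bnip3 and Adm had the largest mean differences between genotypes, and Pgk1, a textbook HIF target, had nearly none. Capitals mark each ACGTG or GCGTG on either strand, where overlapping matches count separately. The windows are at chr7:17062378-17062677 (Hif3a, minus strand, 2 matches), chr8:45999801-46000100 (Ankrd37, minus strand, 4 matches), chr7:138909457-138909756 (Bnip3, minus strand, 5 matches), chr7:110627407-110627706 (Adm, plus strand, 2 matches) and chrX:106186850-106187149 (Pgk1, plus strand, 2 matches).
Hif3a promoter: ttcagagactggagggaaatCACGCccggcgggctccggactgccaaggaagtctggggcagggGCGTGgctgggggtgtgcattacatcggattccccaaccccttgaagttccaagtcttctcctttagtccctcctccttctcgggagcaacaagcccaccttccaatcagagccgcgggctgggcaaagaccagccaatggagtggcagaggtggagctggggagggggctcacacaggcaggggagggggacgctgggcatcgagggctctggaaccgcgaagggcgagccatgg
Ankrd37 promoter: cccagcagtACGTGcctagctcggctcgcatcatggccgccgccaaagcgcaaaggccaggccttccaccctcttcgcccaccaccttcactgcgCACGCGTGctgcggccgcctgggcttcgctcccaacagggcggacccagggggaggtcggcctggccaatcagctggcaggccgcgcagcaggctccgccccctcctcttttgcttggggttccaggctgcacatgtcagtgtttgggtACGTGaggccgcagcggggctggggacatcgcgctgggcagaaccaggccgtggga
Bnip3 promoter: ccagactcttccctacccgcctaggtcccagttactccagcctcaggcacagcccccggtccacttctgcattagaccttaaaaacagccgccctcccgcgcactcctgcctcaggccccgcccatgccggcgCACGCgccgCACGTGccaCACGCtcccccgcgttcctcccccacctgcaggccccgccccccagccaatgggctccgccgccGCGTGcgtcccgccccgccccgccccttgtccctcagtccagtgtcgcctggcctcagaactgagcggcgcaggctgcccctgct
Adm promoter: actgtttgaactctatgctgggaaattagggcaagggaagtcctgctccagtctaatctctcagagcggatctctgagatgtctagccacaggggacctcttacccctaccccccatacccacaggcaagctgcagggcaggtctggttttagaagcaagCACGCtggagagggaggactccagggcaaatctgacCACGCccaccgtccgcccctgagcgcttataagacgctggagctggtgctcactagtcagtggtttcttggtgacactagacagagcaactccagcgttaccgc
Pgk1 promoter: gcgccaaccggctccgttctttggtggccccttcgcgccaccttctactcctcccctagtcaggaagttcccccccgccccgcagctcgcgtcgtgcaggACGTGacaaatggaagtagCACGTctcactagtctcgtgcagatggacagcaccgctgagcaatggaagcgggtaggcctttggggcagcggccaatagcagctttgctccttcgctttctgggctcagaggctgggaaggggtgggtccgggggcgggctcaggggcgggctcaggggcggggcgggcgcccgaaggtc

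Of the 38 members, 34 had a window in that table, and 32 of these (94.1%) held the core in 1 window or more. Among all 27025 genes with a window the share was 46.7%. That share includes genes that did not pass the filter. The member lists include hypoxia-induced targets, so a higher share among members can follow from the choice. Counted by window, 42 of 52 member windows (80.8%) held it, against 61.3% of the 12630 windows of genes tested and 43.8% of the 32851 windows of all genes. The palindrome CACGTG, an E-box bound by other factors and containing the core on both strands, was present in 5 of 52 member windows (9.62%), against 9.68% of windows of genes tested. The Bnip3 window printed above holds 1 such E-box. Hif3a, Ankrd37, Bnip3 and Adm thus had between 2 and 5 matches and Pgk1 had 2, so the printed genes with large differences and the gene with none both held the core. A match is a string of letters and not a measured binding site.

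The targeted gene followed its labels. Dll4 was at 11.4, 15.6, 20.7 and 11.6 FPKM in Dll4+/- replicates 1 to 4, against 22.7, 25.8, 30.7 and 31.3 FPKM in Dll4+/+ replicates 3 to 6. The groups did not overlap (two-sided exact permutation test, p = 0.0286, the smallest that 4 against 4 libraries allow). All 12 pan-endothelial, 10 alveolar type I and 10 alveolar type II markers passed the filter, and none was at 0 in any library. Recovered depth was 17201662 to 22927840 fragments per library, at which 3 fragments of a transcript of 2000 bases correspond to 0.0654 to 0.0872 FPKM. No member was listed at 0 in any library.

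The libraries were unequal. Ranked across genes, most libraries resembled the rest with a median Spearman coefficient of 0.981 or more, but Dll4+/- replicates 1 and 4 reached only 0.919 and 0.956, and Dll4+/+ replicate 3 only 0.964. The 20 cell cycle genes summed to 74.7 FPKM in Dll4+/- replicate 1, against 545 to 605 FPKM in Dll4+/+ libraries, and the other Dll4+/- libraries held 448 to 581 FPKM. Although labelled female, Dll4+/- replicate 2 had 20.3 FPKM of the Y-linked Ddx3y and 0.273 FPKM of Xist, a male pattern that goes against the label. Values without Dll4+/- replicates 1 and 4 are given beside the counts and the leading genes, with Dll4+/+ replicate 3 kept. Dll4+/- replicate 1 was the highest library in 24 of 38 members and Dll4+/- replicate 4 in 8. A smaller difference without them thus follows in part from the choice and is no independent check.

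Over the whole list, the members sat higher in Dll4+/- lungs on average, and the excess came from replicates 1 and 4. No member passed an adjusted p of 0.05 (limma, Benjamini-Hochberg over 13610 genes), where 0 genes passed (0%), and adjusted p-values of members were 0.811 to 0.999. At an unadjusted p under 0.05, 3 members were higher and 0 lower in Dll4+/-, against 1.45% of genes tested that were higher and 1.91% that were lower. The 3 were Adm, Slc2a1 and Kdm3a. A log2 fold change above 0 was found for 34 of 38 members, against 45.9% of genes tested, and the median of the members was 0.18 (log2 scale), against -0.020 for all genes tested. All 4 Dll4+/- libraries were above all 4 Dll4+/+ libraries in 2 members, Pfkl and Kdm3a (1.43% of genes tested), and below them in 0 members (1.69%). Log2 fold changes are Dll4+/- minus Dll4+/+ on log2(FPKM + 1), a scale that understates differences of low genes.

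The count of members depended on single libraries. With Dll4+/- replicates 1 and 4 left out together, 23 members had a log2 fold change above 0 and 15 below, which is 60.5% above, against 56.2% of genes tested in the same fit, with a median of 0.035 against 0.025 for all genes tested. In that fit 1 member (Hilpda, lower) was under an unadjusted p of 0.05 in limma, against 2.09% of genes tested that were lower. Leaving out Dll4+/- replicate 1 alone gave 29 above and 9 below (76.3% above, against 52.0% of genes tested) with a median of 0.13, against 0.0076 for all genes tested. Leaving out replicate 4 alone gave 35 above and 3 below (92.1% above, against 46.5% of genes tested) with a median of 0.17, against -0.018 for all genes tested. The 3 members under an unadjusted p of 0.05 became 0 without Dll4+/- replicate 4 or without Dll4+/+ replicate 3 or 4, 1 without Dll4+/- replicate 1 or without Dll4+/+ replicate 5 or 6, 6 without Dll4+/- replicate 3 and 11 without Dll4+/- replicate 2. No member passed the adjusted threshold in any of these fits.

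Read library by library, the excess lay in Dll4+/- replicates 1 and 4. Dll4+/- replicate 1 was at 1.5 times the highest Dll4+/+ library or more in 17 of 38 members, against 6.88% of genes tested, and at the lowest Dll4+/+ library divided by 1.5 or less in 0 members, against 13.7% of genes tested. Dll4+/- replicate 4 was above by that fold in 7 members (4.37% of genes tested) and below in 1 member, Hilpda (4.06%). In 5 members (0.977% of genes tested) both libraries were above: Hif3a, Adm, Bnip3, Ankrd37 and Slc2a1. Dll4+/- replicates 2 and 3 were outside this range in 0 members. Replicate 1 was the highest of the 8 libraries in 24 members, against 20.9% of genes tested, and replicate 4 in 8 members, against 19.6%.

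**Figure D1:**
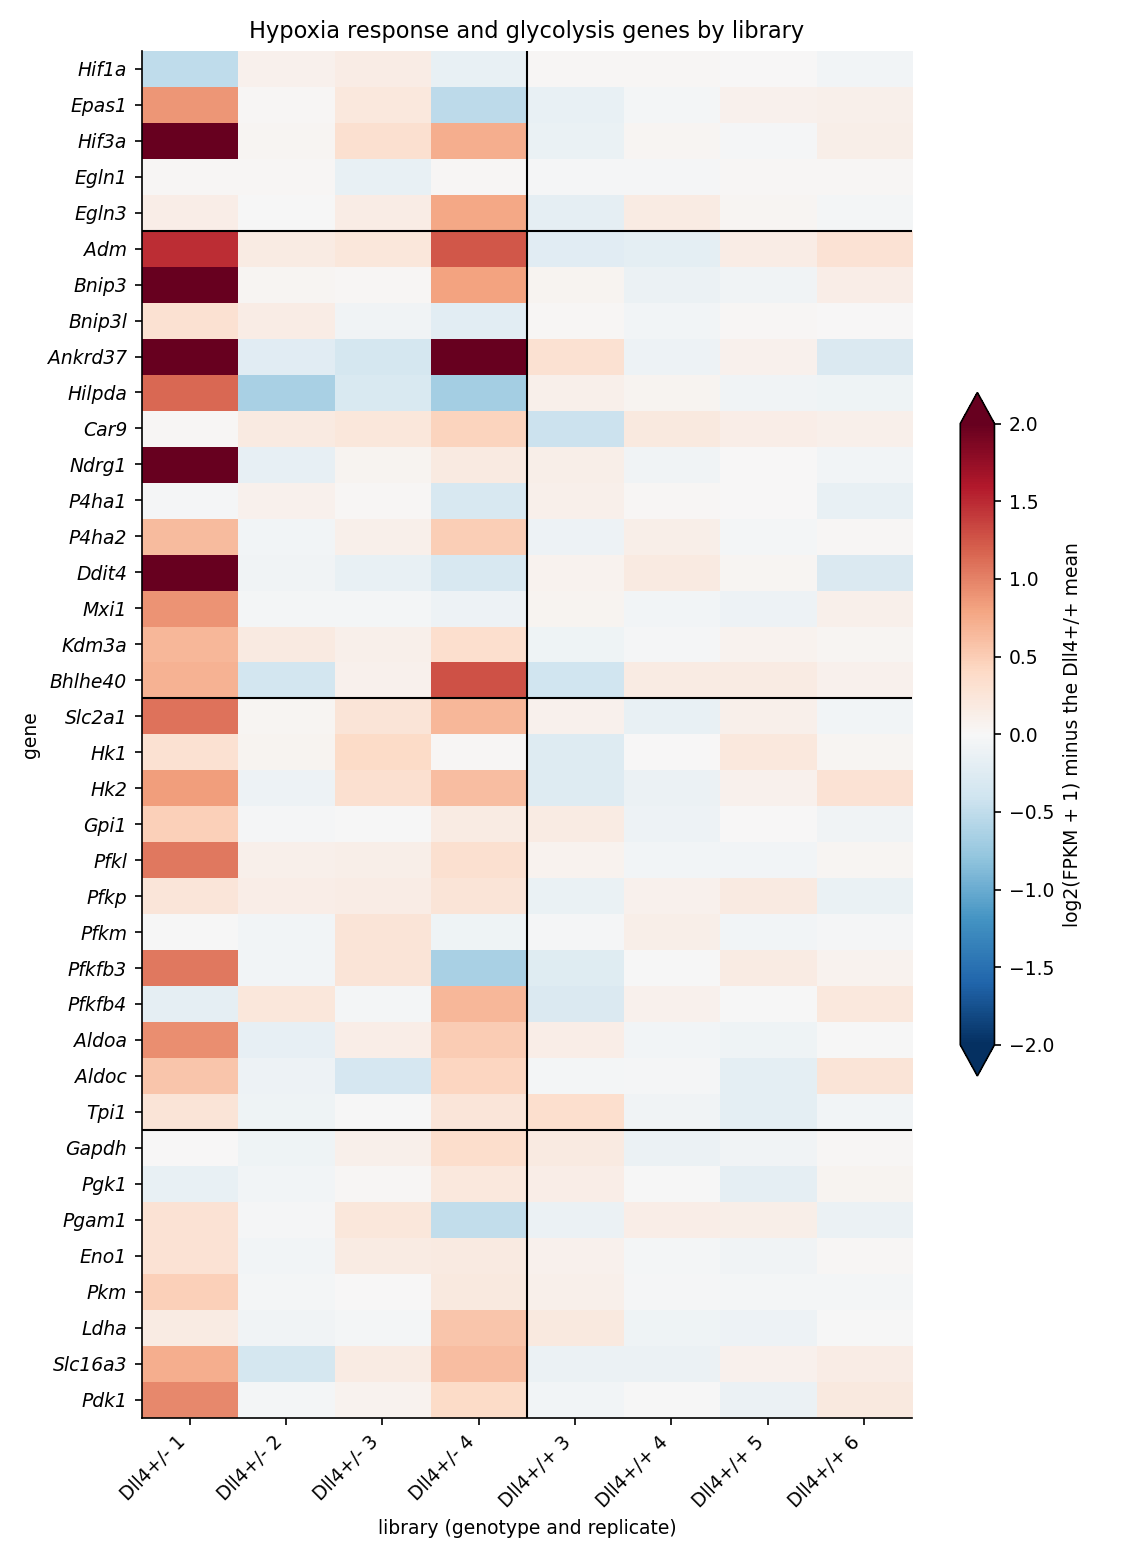
Each of the 38 members (rows, grouped from top to bottom as HIF subunits and oxygen sensing, hypoxia-induced targets, glucose entry with upper glycolysis, and lower glycolysis with the fate of pyruvate) in each library (columns, Dll4+/- to the left of Dll4+/+), coloured by log2(FPKM + 1) minus the gene's Dll4+/+ mean; colours saturate at 2 in either direction. The columns of Dll4+/- replicates 1 and 4 hold most of the red, and Dll4+/- replicates 2 and 3 look like the Dll4+/+ columns.

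The spread within genotypes followed the same division. The coefficient of variation of the members had a median of 29.7% among Dll4+/- libraries (all genes tested 20.5%), against 9.45% among Dll4+/+ libraries (all genes tested 12.4%). In Dll4+/+ lungs the members thus had a smaller median spread than all genes tested, with Egln1 (2.14%), Bnip3l (2.57%) and Hif1a (2.84%) varying least and Car9 (30.7%) most. The comparison was not matched for expression level, with which the coefficient of variation can change.

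Among the HIF alpha subunits, Epas1, which encodes the alpha subunit abundant in endothelium and alveolar type II cells, was the main transcript, and Hif3a stood out in Dll4+/- replicate 1. Epas1 had 375, 206, 235 and 141 FPKM in Dll4+/- replicates 1 to 4, against 183, 199, 215 and 219 FPKM in Dll4+/+ replicates 3 to 6. Replicate 1 was the highest and replicate 4 the lowest of all 8, on opposite sides of the Dll4+/+ range, and the mean difference was 0.14 (log2 scale, SE 0.26), with -0.10 without replicate 1, 0.37 without replicate 4 and 0.11 without both. The 12 pan-endothelial markers summed to 954 FPKM in replicate 4 and 1383 to 1798 FPKM in the other Dll4+/- libraries, against 1430 to 1583 FPKM in Dll4+/+, and their part in the Epas1 values was not tested. In whole lung, fewer cells of a type and less RNA per cell cannot be told apart.

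Hif1a, the alpha subunit present in most cells, had 13.2, 20.4, 21.4 and 17.3 FPKM in Dll4+/- replicates 1 to 4, against 19.6, 19.5, 19.3 and 18.4 FPKM in Dll4+/+ replicates 3 to 6. Replicates 1 and 4 lay below all Dll4+/+ libraries and replicates 2 and 3 above them, for a mean difference of -0.11 (log2 scale, SE 0.15) that turned to 0.12 without replicates 1 and 4. Hif3a, which encodes an alpha subunit with splice forms that restrain the others, had 51.9, 1.06, 1.5 and 2.32 FPKM in Dll4+/- replicates 1 to 4, against 0.841, 1.07, 0.972 and 1.17 FPKM in Dll4+/+ replicates 3 to 6. Replicate 1 was 51.2 times the Dll4+/+ mean and replicate 4 was 2.28 times it, while replicate 2 lay within the Dll4+/+ range and the groups overlapped. The log2 fold change was 1.45 (SE 0.89), with 0.36 without replicate 1 and 0.18 without replicates 1 and 4.

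As shares of the summed FPKM of the 3 alpha subunits, Hif3a made up 11.8% in Dll4+/- replicate 1 and 0.468% to 1.44% in replicates 2 to 4, against 0.413% to 0.492% in Dll4+/+. Hif1a made up 2.99% in replicate 1 and 8.29% to 10.8% in replicates 2 to 4, against 7.72% to 9.61% in Dll4+/+. Epas1 held 85.2% to 91.1% in Dll4+/- and 90.0% to 91.8% in Dll4+/+.

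The members include a pair of prolyl hydroxylases, which mark the alpha subunits for removal. Egln1, the main hydroxylase of HIF, averaged 27.1 ± 1.70 FPKM in Dll4+/- and 27.5 ± 0.588 FPKM in Dll4+/+ (SD, n = 4 each). Egln3, a hydroxylase that HIF itself induces, averaged 7.45 ± 2.25 FPKM in Dll4+/- and 5.91 ± 0.703 FPKM in Dll4+/+ (SD, n = 4 each). Its 10.8 FPKM in Dll4+/- replicate 4 was the highest of the 8 values, at 1.82 times the Dll4+/+ mean, and its log2 fold change was 0.26 (SE 0.18). Of the 5 genes of this list, 3 had a mean difference above 0 and 2 below, against 45.9% above among genes tested. Without Dll4+/- replicates 1 and 4, 4 were above and 1 below (80% above, against 56.2% of genes tested). In both fits 0 were under an unadjusted p of 0.05.

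Hypoxia-induced targets had the highest median difference of the 4 lists. Of the 13, 11 had a mean difference above 0 and 2 below, against 45.9% above among genes tested. The median log2 fold change in all libraries was 0.32, against -0.020 for all genes tested. Without Dll4+/- replicates 1 and 4, 7 were above and 6 below (53.8% above, against 56.2% of genes tested). Summed over the list, they reached 565 FPKM in Dll4+/- replicate 1, 192 to 194 FPKM in replicates 2 and 3 and 235 FPKM in replicate 4, against 200 to 206 FPKM in Dll4+/+.

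Adm encodes adrenomedullin, a peptide that widens vessels and acts on endothelium. It had 32.0, 12.3, 12.9 and 27.0 FPKM in Dll4+/- replicates 1 to 4, against 9.11, 9.34, 12.2 and 13.5 FPKM in Dll4+/+ replicates 3 to 6. Replicates 1 and 4 were above every Dll4+/+ library, while replicates 2 and 3 lay within the Dll4+/+ range. The log2 fold change was 0.78 (SE 0.30, limma unadjusted p = 0.0293), with 0.54 without replicate 1, 0.62 without replicate 4 and 0.20 without both.

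Ankrd37, an ankyrin-repeat gene known as a direct HIF target, had 39.3, 2.66, 2.34 and 18.7 FPKM in Dll4+/- replicates 1 to 4, against 4.29, 2.99, 3.51 and 2.50 FPKM in Dll4+/+ replicates 3 to 6. Replicate 1 was 11.8 times and replicate 4 was 5.62 times the Dll4+/+ mean, and replicate 3 was the lowest of all 8. The log2 fold change was 1.22 (SE 0.73), and it turned to -0.29 without replicates 1 and 4. Exons of Ankrd37 overlap those of Ufsp2 on the opposite strand, and the sources used here do not say whether counting took account of strand. Ufsp2 had 13.0 and 17.7 FPKM in Dll4+/- replicates 1 and 4, against 12.9 to 18.0 FPKM in Dll4+/+. The part of the overlap in the Ankrd37 values was not tested.

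Bnip3 and Bnip3l encode mitochondrial outer-membrane proteins that direct mitochondria to autophagy. Bnip3 had 77.1, 15.0, 14.8 and 26.2 FPKM in Dll4+/- replicates 1 to 4, against 15.2, 13.3, 13.8 and 16.1 FPKM in Dll4+/+ replicates 3 to 6. Replicates 1 and 4 were 5.28 and 1.79 times the Dll4+/+ mean and replicates 2 and 3 were within its range (log2 fold change 0.80, SE 0.44, and 0.033 without replicates 1 and 4). Bnip3l did not share this pattern, with 67.3 FPKM in replicate 1 and 47.0 FPKM in replicate 4, and averaged 56.7 ± 8.95 FPKM in Dll4+/- and 54.6 ± 1.40 FPKM in Dll4+/+ (SD, n = 4 each).

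Ndrg1 and Ddit4 were high in Dll4+/- replicate 1 but not in replicate 4. Ndrg1, a gene of cellular stress and differentiation, had 20.6, 2.67, 3.26 and 3.62 FPKM in Dll4+/- replicates 1 to 4, against 3.43, 2.92, 3.13 and 2.92 FPKM in Dll4+/+ replicates 3 to 6. Ddit4, whose product REDD1 restrains the growth kinase mTORC1, had 151, 19.0, 17.9 and 15.8 FPKM in Dll4+/- replicates 1 to 4, against 21.1, 22.8, 20.4 and 16.2 FPKM in Dll4+/+ replicates 3 to 6. For both genes the remaining Dll4+/- libraries lay near the Dll4+/+ range, and the log2 fold changes of 0.62 (SE 0.49) and 0.58 (SE 0.62) became 0.024 and -0.18 without replicate 1, and -0.051 and -0.11 without replicates 1 and 4. Ddit4 is also known as a glucocorticoid-induced gene. The 11 glucocorticoid-induced genes listed, of which 10 passed the filter, summed to 1329 FPKM in replicate 1, 430 and 602 FPKM in replicates 2 and 3 and 947 FPKM in replicate 4, against 548 to 579 FPKM in Dll4+/+. In replicate 4, Mt1 and Mt2, which metals also induce, made up 423 and 233 FPKM of that sum (named after their values were seen), and the median gene of the list was 0.25 below its mean over libraries (log2 scale), inside the Dll4+/+ values of 0.39 to 0.19 below. The part of these genes in the results was not tested.

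Bhlhe40, a transcriptional repressor that also takes part in the circadian clock, was highest in replicate 4 and next in replicate 1. It had 15.0, 6.58, 9.45 and 22.6 FPKM in Dll4+/- replicates 1 to 4, against 6.41, 9.98, 9.97 and 9.41 FPKM in Dll4+/+ replicates 3 to 6. Replicate 4 was at 2.53 times the Dll4+/+ mean, and the groups overlapped (log2 fold change 0.42, SE 0.32, and -0.14 without replicates 1 and 4).

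Kdm3a (GRCm38 chr6:71588972-71632990, minus strand), a demethylase of histone H3, was among the few members with separated groups. It had 16.9, 11.8, 11.2 and 13.3 FPKM in Dll4+/- replicates 1 to 4, against 9.66, 10.2, 10.8 and 10.6 FPKM in Dll4+/+ replicates 3 to 6. Every Dll4+/- library was above every Dll4+/+ library, with a log2 fold change of 0.32 (SE 0.13, limma unadjusted p = 0.0397). Without replicates 1 and 4 it was 0.14 (SE 0.087). The groups did not overlap in that smaller fit either, but the same held for Hif1a and Pfkl (higher) and Hilpda (lower). The share over all genes in that fit is not given here.

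Hilpda (GRCm38 chr6:29272488-29275446, plus strand), whose product blocks the breakdown of stored triglycerides, ran both ways. It had 100.3 FPKM in Dll4+/- replicate 1 and 28.2, 36.1 and 27.7 FPKM in replicates 2 to 4, against 48.1, 46.8, 42.5 and 42.0 FPKM in Dll4+/+ replicates 3 to 6. Replicate 1 was above all Dll4+/+ libraries and the other 3 were below all of them, for a mean difference of -0.12 (log2 scale, SE 0.36), or -0.54 without replicate 1. Without replicates 1 and 4 it was -0.48 (SE 0.12, limma unadjusted p = 0.00477, adjusted p = 0.849).

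Among the remaining targets, Mxi1, a MYC antagonist, averaged 9.40 ± 3.97 FPKM in Dll4+/- and 7.78 ± 0.575 FPKM in Dll4+/+ (SD, n = 4 each), with 15.3 FPKM in replicate 1 and 7.20 to 7.53 FPKM in the other Dll4+/- libraries. P4ha2, an alpha subunit of the collagen prolyl hydroxylase, averaged 9.86 ± 2.37 FPKM in Dll4+/- and 7.71 ± 0.558 FPKM in Dll4+/+ (SD, n = 4 each). Its partner isoform P4ha1 averaged 15.3 ± 1.94 FPKM in Dll4+/- and 15.9 ± 1.22 FPKM in Dll4+/+ (SD, n = 4 each), so the pair of collagen-modifying subunits had mean differences of opposite sign (0.30, SE 0.16, and -0.055, SE 0.12, on the log2 scale), which were 0.030 and 0.057 without replicates 1 and 4. Car9, a surface carbonic anhydrase often used as a marker of hypoxia, was low throughout, at 1.79 ± 0.340 FPKM in Dll4+/- and 1.42 ± 0.437 FPKM in Dll4+/+ (SD, n = 4 each). Dll4+/- replicate 1, in which most other targets were highest, had 1.42 FPKM of Car9, next to the Dll4+/+ mean. Car9 shares exon bases with the opposite-strand gene Gm12454.

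**Figure D2:**
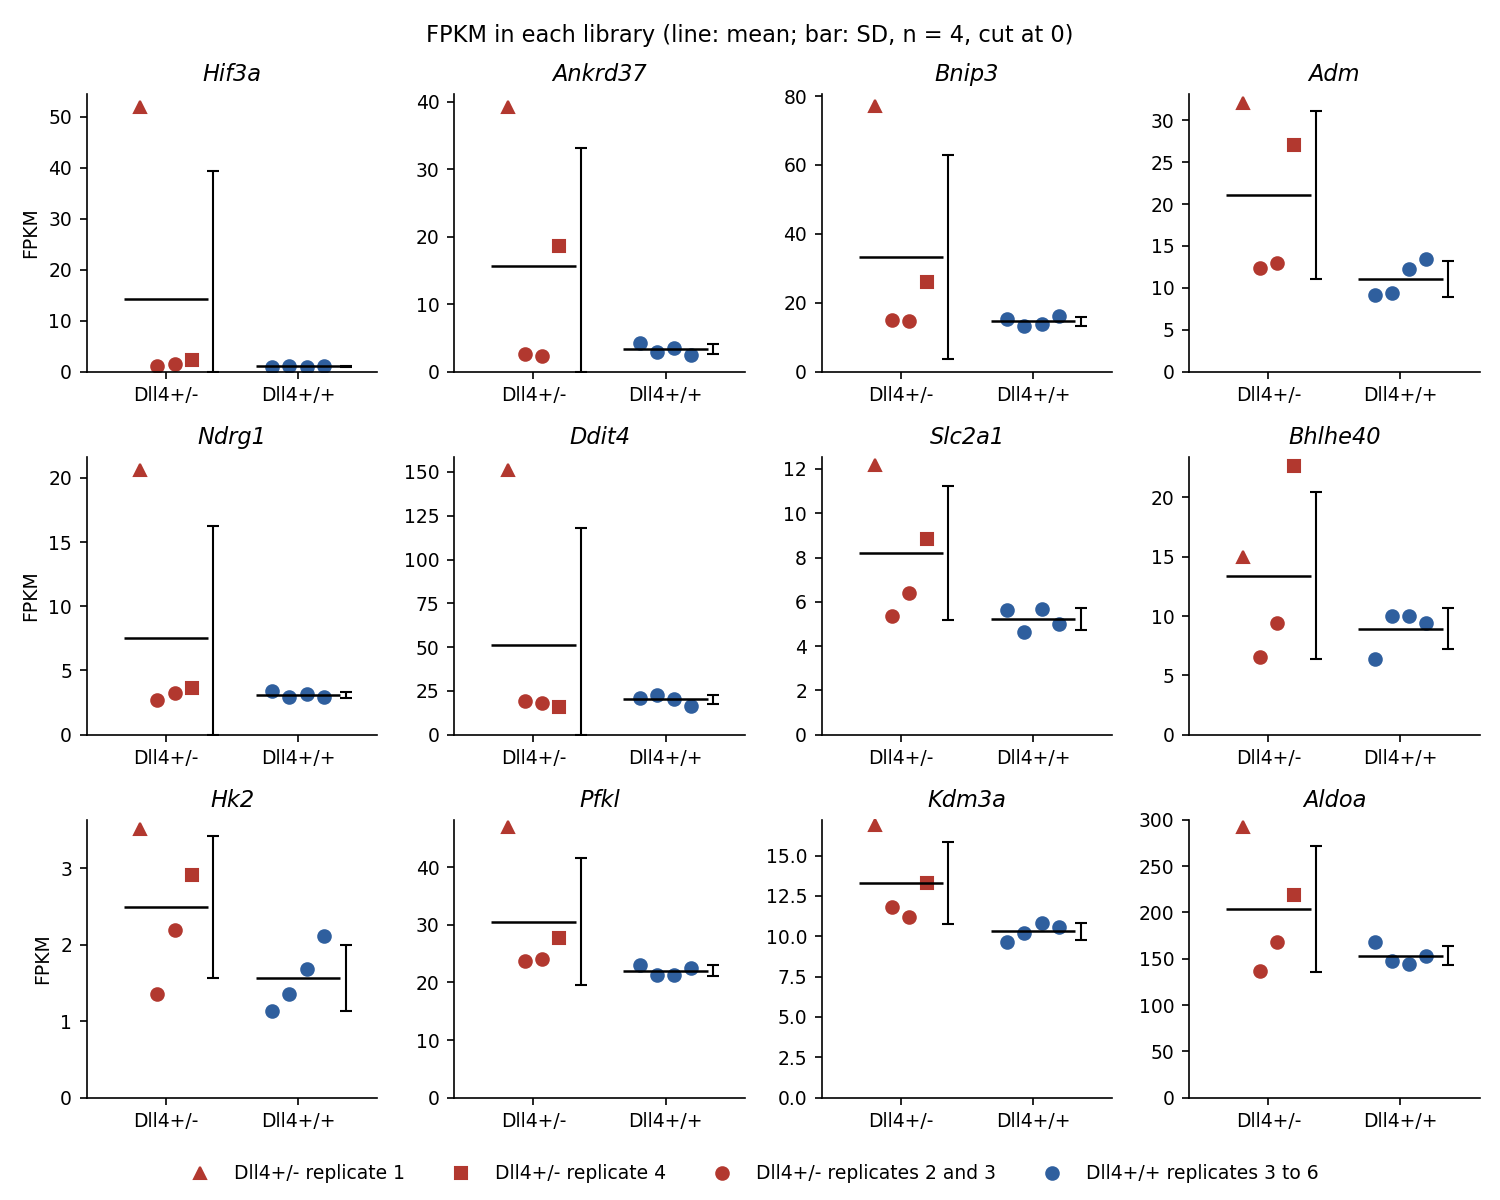
FPKM of 12 members in each library (points), with the mean (line) and SD (bar, n = 4 each, cut at 0) of Dll4+/- on the left and Dll4+/+ on the right of each panel; the vertical axes are linear, start at 0 and differ between panels. Triangles (Dll4+/- replicate 1) and squares (Dll4+/- replicate 4) carry the excess in most panels, as in Ankrd37 with 39.3 and 18.7 FPKM against 2.50 to 4.29 FPKM in Dll4+/+.

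Glucose entry and the upper steps of glycolysis had a mean difference above 0 in 12 of 12 members, against 45.9% of genes tested, with a median log2 fold change of 0.18 against -0.020 for all genes tested. Without Dll4+/- replicates 1 and 4 it was above 0 in 8 of 12 (66.7%, against 56.2% of genes tested), with Gpi1, Aldoa, Aldoc and Tpi1 below. With all libraries 1 of them, Slc2a1, was under an unadjusted p of 0.05. Slc2a1 (GRCm38 chr4:119108711-119137983, plus strand) encodes the glucose transporter GLUT1. It had 12.2, 5.37, 6.41 and 8.82 FPKM in Dll4+/- replicates 1 to 4, against 5.61, 4.63, 5.69 and 5.0 FPKM in Dll4+/+ replicates 3 to 6. Replicates 1, 3 and 4 were above all Dll4+/+ libraries and replicate 2 was inside their range. The log2 fold change was 0.51 (SE 0.21, limma unadjusted p = 0.0391), with 0.32 without replicate 1, 0.46 without replicate 4 and 0.14 without both.

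Hexokinases trap glucose in the cell as a phosphate. Hk2, the isozyme that HIF induces, had 3.52, 1.36, 2.19 and 2.92 FPKM in Dll4+/- replicates 1 to 4, against 1.13, 1.35, 1.69 and 2.12 FPKM in Dll4+/+ replicates 3 to 6. Replicates 1, 3 and 4 were above the highest Dll4+/+ library (log2 fold change 0.42, SE 0.22, and 0.11, SE 0.20, without replicates 1 and 4). Hk1, the isozyme of most tissues, was the major form at 19.6 ± 2.61 FPKM in Dll4+/- and 17.1 ± 2.38 FPKM in Dll4+/+ (SD, n = 4 each).

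Phosphofructokinase commits sugar to glycolysis, and its liver-type subunit Pfkl (GRCm38 chr10:77986947-78010083, minus strand) was the other member with separated groups. Pfkl had 46.9, 23.6, 24.0 and 27.7 FPKM in Dll4+/- replicates 1 to 4, against 23.1, 21.2, 21.2 and 22.5 FPKM in Dll4+/+ replicates 3 to 6. The lowest Dll4+/- value was just above the highest Dll4+/+ value, and replicate 1 was 2.13 times the Dll4+/+ mean (log2 fold change 0.40, SE 0.20, and 0.11, SE 0.079, without replicates 1 and 4). The platelet-type subunit Pfkp averaged 10.1 ± 0.462 FPKM in Dll4+/- and 8.73 ± 1.05 FPKM in Dll4+/+ (SD, n = 4 each). The muscle-type subunit Pfkm averaged 17.5 ± 2.09 FPKM in Dll4+/- and 17.1 ± 1.01 FPKM in Dll4+/+ (SD, n = 4 each). Pfkp and Pfkm share exon bases with the opposite-strand genes Pitrm1 and Senp1.

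Pfkfb3 and Pfkfb4 encode enzymes that set the level of a fructose bisphosphate that activates phosphofructokinase and differs from its product. In Dll4+/- replicate 4 they lay on opposite sides of the Dll4+/+ range. Pfkfb3 had 20.9 FPKM in Dll4+/- replicate 1 and 5.74 FPKM in replicate 4, against 7.98 to 10.9 FPKM in Dll4+/+. Pfkfb4 had 8.75 FPKM in replicate 1 and 16.4 FPKM in replicate 4, against 8.01 to 11.7 FPKM in Dll4+/+. Their group means were 11.8 ± 6.48 and 11.7 ± 3.40 FPKM in Dll4+/-, against 9.63 ± 1.23 and 10.1 ± 1.54 FPKM in Dll4+/+ (SD, n = 4 each).

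Aldoa, the most abundant aldolase, had 292, 137, 168 and 219 FPKM in Dll4+/- replicates 1 to 4, against 168, 148, 145 and 152 FPKM in Dll4+/+ replicates 3 to 6. Replicates 1 and 4 were above all Dll4+/+ libraries, replicate 2 was the lowest of all 8, and the log2 fold change of 0.35 (SE 0.22) was -0.013 without replicates 1 and 4. Aldoc, the aldolase of brain, averaged 1.89 ± 0.820 FPKM in Dll4+/- and 1.56 ± 0.334 FPKM in Dll4+/+ (SD, n = 4 each). Gpi1, which converts glucose phosphate to fructose phosphate, averaged 70.9 ± 12.3 FPKM in Dll4+/- and 63.1 ± 5.23 FPKM in Dll4+/+ (SD, n = 4 each). Tpi1, which interconverts the 2 triose phosphates, averaged 88.4 ± 10.7 FPKM in Dll4+/- and 82.7 ± 14.3 FPKM in Dll4+/+ (SD, n = 4 each). Tpi1 has processed pseudogene copies and shares exon bases with the opposite-strand gene Spsb2, so its level is uncertain.

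The lower steps of glycolysis held Ldha, Gapdh and Pkm, which are among the 5 most abundant members. All 8 had a mean difference above 0, against 45.9% of genes tested, with a median log2 fold change of 0.15 against -0.020 for all genes tested and 0 under an unadjusted p of 0.05. Without Dll4+/- replicates 1 and 4 only 4 of 8 were above 0 (50%, against 56.2% of genes tested), with Pgk1, Pkm, Ldha and Slc16a3 below. Gapdh, which reduces NAD while oxidising the triose, had 240.0, 224, 257 and 306 FPKM in Dll4+/- replicates 1 to 4, against 269, 219, 227 and 244 FPKM in Dll4+/+ replicates 3 to 6. The groups overlapped, and replicate 4 rather than replicate 1 was highest (log2 fold change 0.094, SE 0.14). Gapdh has many pseudogene copies and shares exon bases with the opposite-strand gene Iffo1.

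Pkm, pyruvate kinase of most tissues, had 279.6 FPKM in Dll4+/- replicate 1 and 194, 201 and 228 FPKM in replicates 2 to 4, against 215, 196, 195 and 195 FPKM in Dll4+/+ replicates 3 to 6. Replicates 1 and 4 were above all Dll4+/+ libraries and replicate 2 was below them (log2 fold change 0.16, SE 0.14, and -0.017 without replicates 1 and 4). Ldha, the lactate dehydrogenase subunit that favours lactate, had 257, 219, 223 and 338 FPKM in Dll4+/- replicates 1 to 4, against 263, 218, 214 and 230 FPKM in Dll4+/+ replicates 3 to 6. Replicate 4 was highest and replicate 1 lay inside the Dll4+/+ range (log2 fold change 0.15, SE 0.16, and -0.059 without replicates 1 and 4).

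Between Gapdh and pyruvate kinase, 3 enzymes rearrange the phosphate. Pgk1, which makes ATP, averaged 67.1 ± 7.32 FPKM in Dll4+/- and 66.9 ± 6.14 FPKM in Dll4+/+ (SD, n = 4 each), and was lower in replicate 1 (59.8 FPKM) than the Dll4+/+ mean. Pgam1, phosphoglycerate mutase, averaged 17.0 ± 4.04 FPKM in Dll4+/- and 16.6 ± 1.67 FPKM in Dll4+/+ (SD, n = 4 each). Eno1, enolase, averaged 66.0 ± 6.38 FPKM in Dll4+/- and 59.4 ± 2.80 FPKM in Dll4+/+ (SD, n = 4 each). The near-identical retrogene Eno1b averaged 17.8 ± 2.97 FPKM in Dll4+/- and 17.5 ± 2.07 FPKM in Dll4+/+ (SD, n = 4 each), so reads of both may have been split.

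At the end of the pathway, Slc16a3 exports lactate and Pdk1 holds pyruvate back from mitochondria by phosphorylating pyruvate dehydrogenase. Slc16a3 averaged 4.38 ± 1.69 FPKM in Dll4+/- and 3.23 ± 0.400 FPKM in Dll4+/+ (SD, n = 4 each). Pdk1 averaged 6.81 ± 2.63 FPKM in Dll4+/- and 4.93 ± 0.574 FPKM in Dll4+/+ (SD, n = 4 each). Both were highest in Dll4+/- replicate 1, at 6.00 and 10.6 FPKM, and next in replicate 4, at 5.48 and 6.70 FPKM. Their log2 fold changes of 0.29 (SE 0.23) and 0.35 (SE 0.21) were -0.091 and 0.021 without these libraries.

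**Figure D3:**
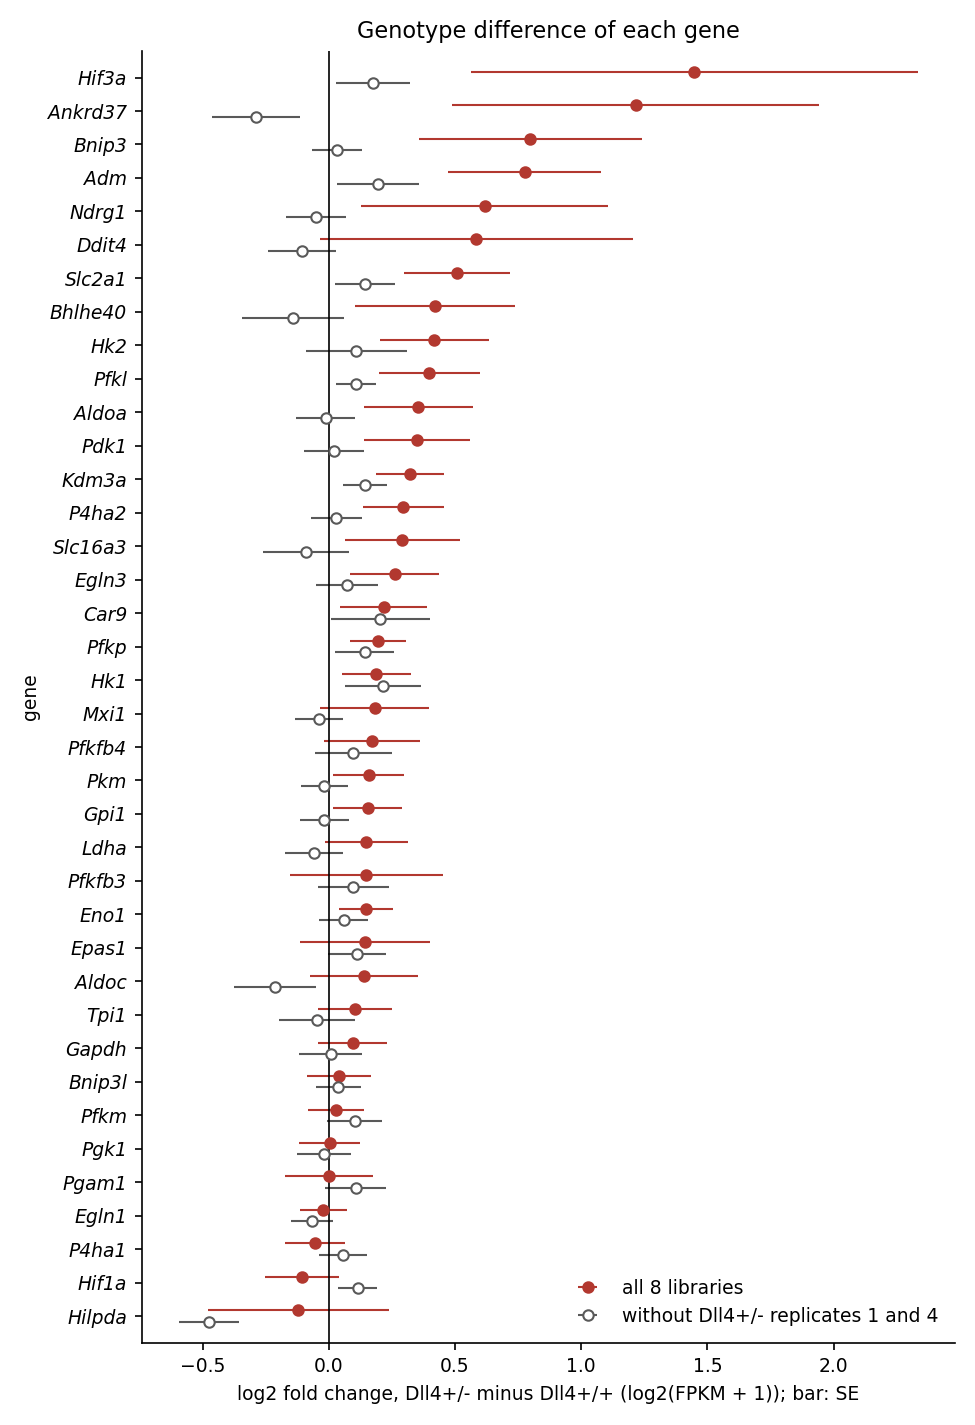
Log2 fold change of each member (Dll4+/- minus Dll4+/+, on log2(FPKM + 1)) with its SE as a bar, from limma on all 8 libraries (filled) and without Dll4+/- replicates 1 and 4 (open), ordered by the filled points. The filled points run from -0.12 (Hilpda) to 1.45 (Hif3a) with 34 of 38 above 0, and the open points gather around 0 with 23 above and 15 below.

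Isozyme shares, each gene as a percent of the summed FPKM of its family, placed the members beside relatives outside the list. Slc2a8, an intracellular transporter, was the largest of 4 glucose transporters, at 46.6% ± 5.03 in Dll4+/- and 53.0% ± 1.26 in Dll4+/+ (SD, n = 4 each), followed by Slc2a1 at 31.0% ± 4.61 in Dll4+/- and 26.4% ± 1.83 in Dll4+/+. Hk2 reached 13.5% and 13.0% of the hexokinases in Dll4+/- replicates 1 and 4, against 6.66% to 9.94% in Dll4+/+. Pfkl was 63.1% of the phosphofructokinases in replicate 1 and 44.1% to 51.0% in the other Dll4+/- libraries, against 43.3% to 48.4% in Dll4+/+.

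The shares of Slc16a3, Pdk4 and Pfkfb3 lay outside the Dll4+/+ range in Dll4+/- replicate 1. Slc16a3 was 62.4% of its sum with the other lactate carrier Slc16a1 in that library and 22.2% to 35.1% in the other Dll4+/- libraries, against 25.0% to 31.5% in Dll4+/+. Both genes moved there. Slc16a3 was at 6.00 FPKM against 2.88 to 3.68 FPKM in Dll4+/+, and Slc16a1 at 3.61 FPKM against 7.19 to 9.15 FPKM. Pdk4, the pyruvate dehydrogenase kinase of fasting and glucocorticoids, was 45.5% of the 4 kinases in replicate 1 and 3.55% to 9.04% in the others, against 4.36% to 5.02% in Dll4+/+. Pfkfb3 was 54.7% of the 4 PFKFB enzymes in replicate 1 and 16.3% in replicate 4, against 34.0% to 38.3% in Dll4+/+. Ldha held 82.1% to 88.0% of lactate dehydrogenase in Dll4+/- and 83.7% to 84.8% in Dll4+/+, and Pkm and Aldoa were nearly the whole of theirs in all 8 libraries.

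Pgam2, the mutase of heart and skeletal muscle, varied widely within both genotypes. It was 35.6%, 28.0%, 63.7% and 59.5% of the 2 mutases in Dll4+/- replicates 1 to 4, against 52.6%, 38.5%, 30.9% and 59.7% in Dll4+/+ replicates 3 to 6. The 9 cardiac-type muscle markers, of which Nppa was at 0 in 5 libraries, summed to 78.1, 60.0, 842 and 380 FPKM in the same Dll4+/- libraries, against 317, 288, 154 and 469 FPKM in the same Dll4+/+ libraries. The library with the highest sum, Dll4+/- replicate 3, had the highest Pgam2 share and that with the lowest sum, Dll4+/- replicate 2, had the lowest. The part of muscle in the Pgam shares was not tested.

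**Figure D4:**
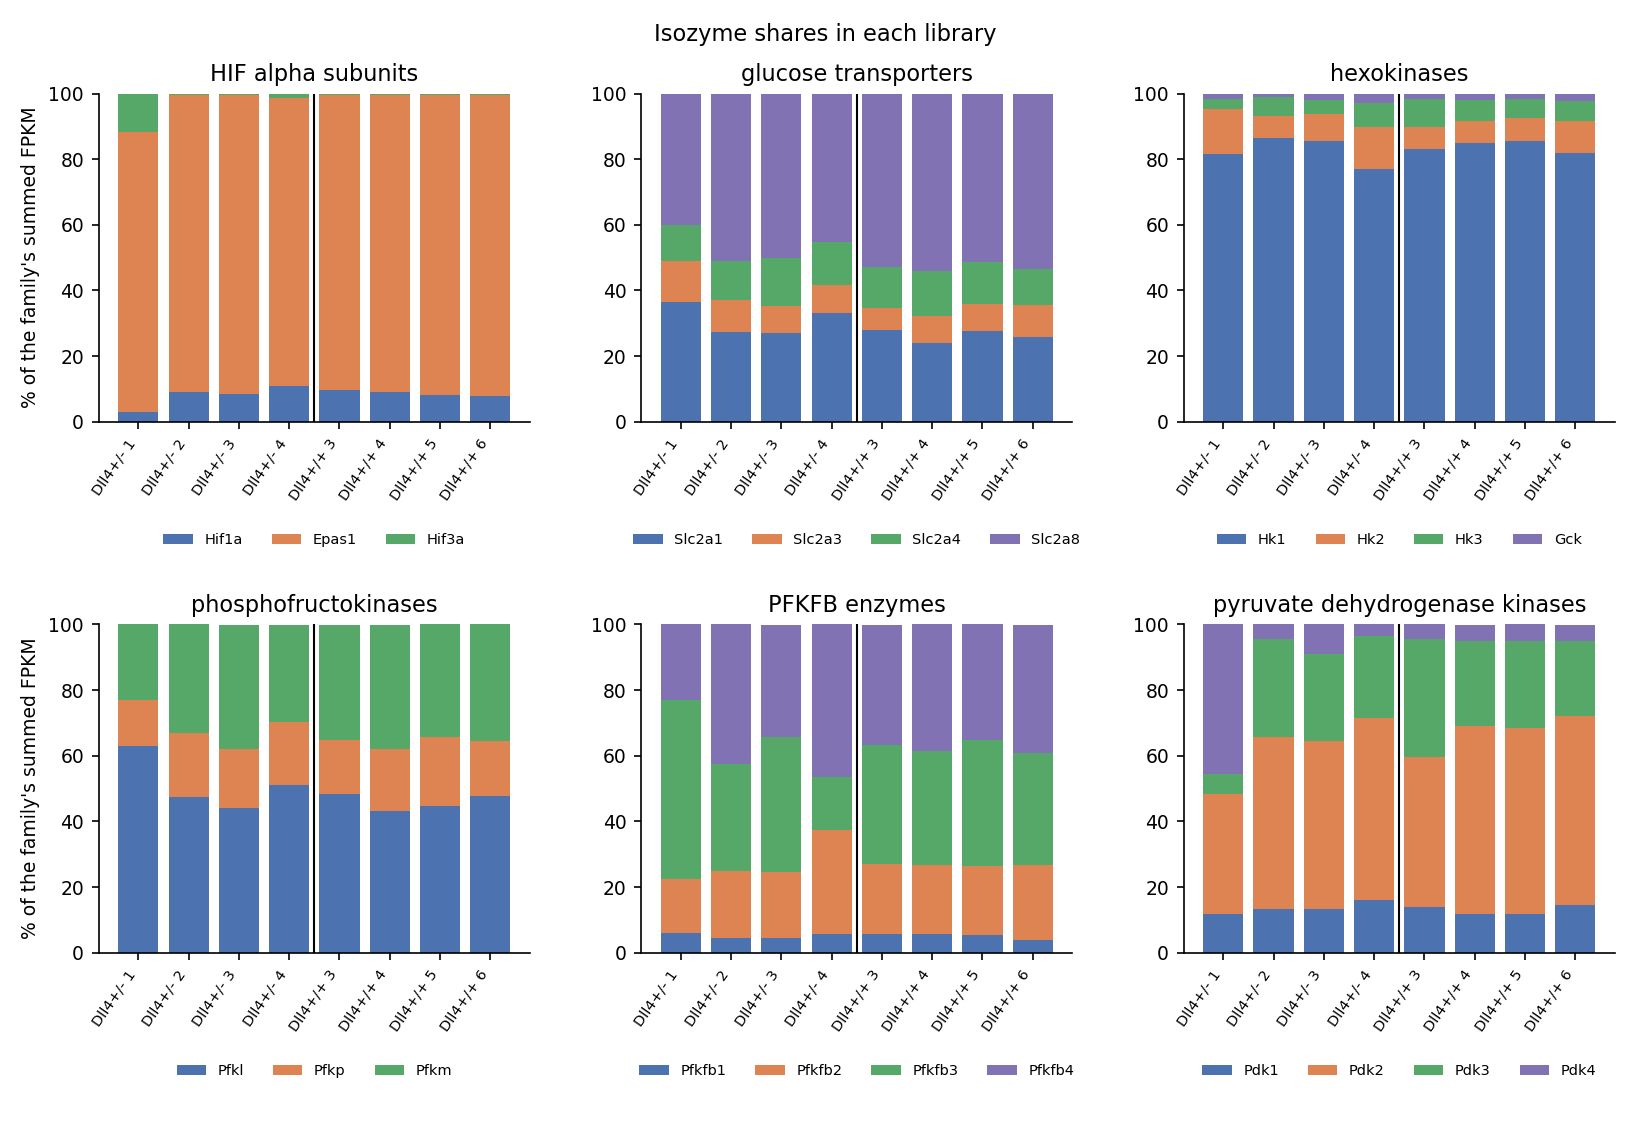
Share of each isozyme in the summed FPKM of its family (vertical axis, percent) in each library (bars, Dll4+/- to the left of the line and Dll4+/+ to the right), for HIF alpha subunits, glucose transporters, hexokinases, phosphofructokinases, PFKFB enzymes and pyruvate dehydrogenase kinases. Dll4+/- replicate 1 departs from the other bars in the Hif3a (11.8%), Pfkl (63.1%), Pfkfb3 (54.7%) and Pdk4 (45.5%) shares.

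Outside the 38 members, 47 further genes of the same pathways were read, of which 42 passed the filter. Of these, 29 had a mean difference above 0 and 13 below, against 45.9% above among all genes tested, with a median log2 fold change of 0.094 against -0.020. Without Dll4+/- replicates 1 and 4, 24 were above and 18 below (57.1% above, against 56.2% of genes tested in the same fit). With all libraries, 0 were under an unadjusted p of 0.05 in limma (the smallest was 0.0513 for Ppp1r3c, a glycogen-targeting subunit that was lower in Dll4+/-). The largest difference was that of Pdk4, which had 40.9, 1.55, 3.53 and 1.49 FPKM in Dll4+/- replicates 1 to 4, against 1.45, 2.09, 1.87 and 1.95 FPKM in Dll4+/+ replicates 3 to 6. Lox, the HIF-induced crosslinker of collagen and elastin, had 104, 25.1, 32.0 and 36.0 FPKM in Dll4+/- replicates 1 to 4, against 21.3, 24.2, 23.8 and 25.8 FPKM in Dll4+/+ replicates 3 to 6. Both were highest in replicate 1.

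Vegfa, the angiogenic growth factor among the best known HIF targets, had its highest values in the same libraries as Adm and Ankrd37, by a smaller margin. It had 328, 299, 304 and 343 FPKM in Dll4+/- replicates 1 to 4, against 207, 302, 312 and 307 FPKM in Dll4+/+ replicates 3 to 6. Replicates 4 and 1 were above every Dll4+/+ library, replicates 2 and 3 lay within the Dll4+/+ range, and Dll4+/+ replicate 3 was the lowest of all 8 (log2 fold change 0.19, SE 0.16). The oxygen-sensing partners Arnt (0.099, SE 0.13), Vhl (-0.12, SE 0.11), Egln2 (0.11, SE 0.19) and Hif1an (0.063, SE 0.13) had log2 fold changes between -0.12 and 0.11. Egln2, a further prolyl hydroxylase, had 49.0 FPKM in Dll4+/- replicate 1 and 24.9 to 28.9 FPKM in the other Dll4+/- libraries, against 27.1 to 29.6 FPKM in Dll4+/+.

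Log2 fold changes were larger in pups labelled male than in those labelled female for each of the 10 members with the largest overall values. Labelled sex and the libraries that stand apart cannot be told apart, since Dll4+/- replicates 1 and 4 are the ones labelled male, and Dll4+/- replicate 2 goes against its female label. The interaction of labelled sex and genotype passed an adjusted p of 0.05 in 0 members (limma, 0.022% of genes tested), and 6 members had an unadjusted p under 0.05, against 7.61% of genes tested. The smallest was that of Ankrd37 (limma unadjusted p = 0.00051, adjusted p = 0.490), whose log2 fold change was 2.71 in labelled males and -0.28 in labelled females. The others were Bhlhe40, Adm, P4ha2, Slc2a1 and Slc16a3.

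Other gene lists moved in the same libraries as the members. Dll4+/- replicate 1, with a median member 0.48 above its mean over libraries (log2 scale), also had glucocorticoid-induced genes at 1.54, neutrophil markers at 2.28, alveolar type I markers at 0.60 and cell cycle genes at -2.20 on the same measure. The 12 neutrophil markers, of which 9 passed the filter and Ly6g was at 0 in 1 library, summed to 1426 FPKM there and 95.5 to 149.5 FPKM elsewhere among Dll4+/- pups, against 126 to 202 FPKM in Dll4+/+. In Dll4+/- replicate 4 the median member was 0.17 above its mean, alveolar type II markers were at 0.61, alveolar type I markers at -0.43 and pan-endothelial markers at -0.58. The 10 alveolar type I markers, which include Vegfa, summed to 2938 FPKM in replicate 1 and 1646 FPKM in replicate 4, against 1897 to 2071 FPKM in Dll4+/+. The remaining 6 libraries had a median member between -0.18 and -0.060. The part of these lists in the members' values was not tested.

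**Figure D5:**
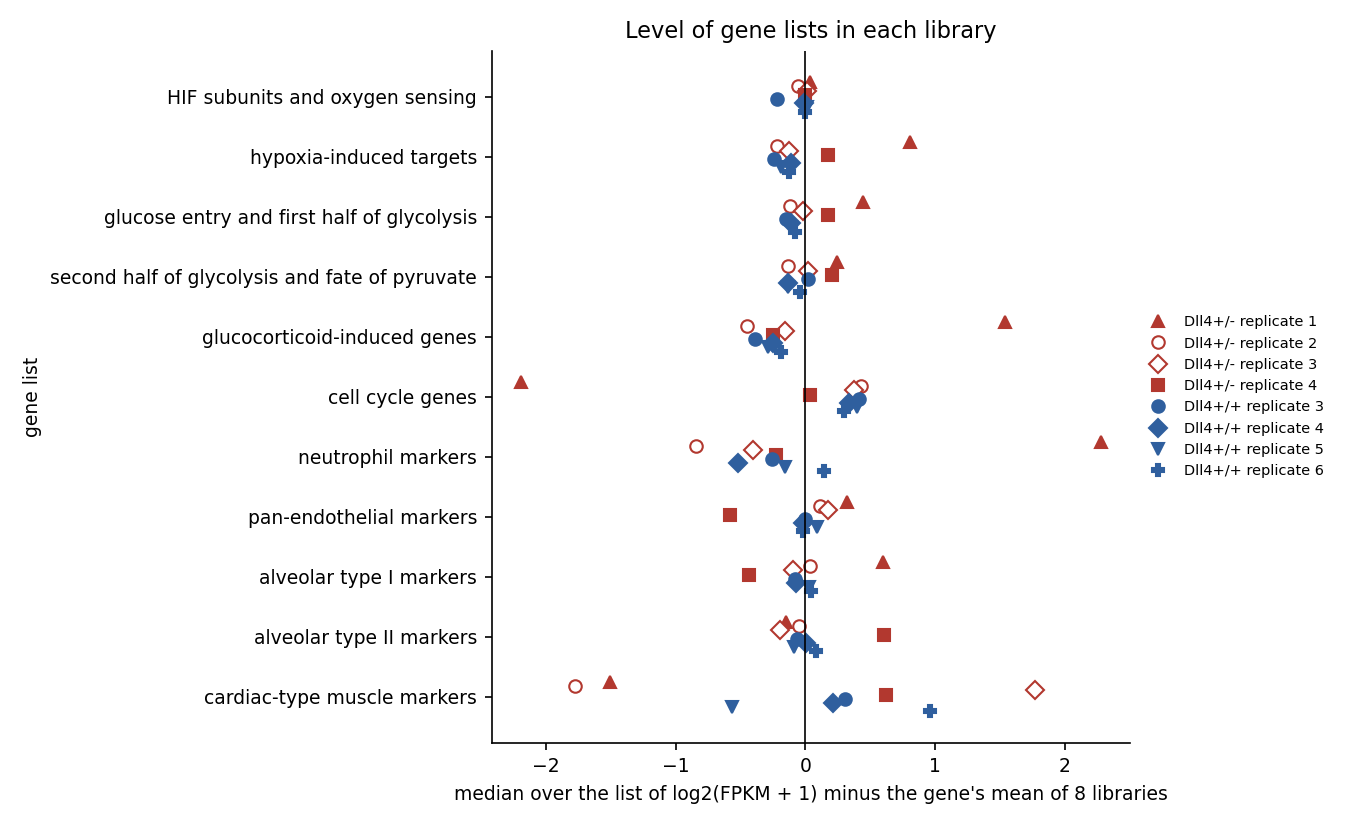
Median over each gene list (rows) of log2(FPKM + 1) minus the gene's mean over 8 libraries (horizontal axis), with a symbol per library, Dll4+/- in red and Dll4+/+ in blue. Dll4+/- replicate 1 stands to the right for hypoxia-induced targets (0.81), glucocorticoid-induced genes (1.54) and neutrophil markers (2.28) and to the left for cell cycle genes (-2.20).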

How the data were processed

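Members were taken by gene symbol from 1 deposited table. The authors deposited FPKM per gene and library. Per the submitters' processing notes, CASAVA and STAR were used with GRCm38.p4, in versions not stated there. The table lists 239 genes, 0 of them members, with zeros replaced by an FPKM of 0.005, which were set back to 0. Columns of the authors' own fold ratios and p-values were not used. Groups, labelled sexes and replicate numbers came from the sample labels. The series has 10 samples and FPKM of 8 were used; libraries come from separate pups, so p-values measure the spread between pups, and litters were not modelled. Depth was recovered from the steps of low FPKM values, and its limits cover counting error only.

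Genes reaching 1 FPKM in 4 libraries or more were tested on log2(FPKM + 1) with limma 3.58.1 (R 4.3.3), empirical Bayes with a mean-variance trend, two-sided, Benjamini-Hochberg over 13610 genes, threshold 0.05. The design was written for all samples of both genotypes and run on the 8 with values. The fit was tested on simulated data, where it recovered 76% of 100 genes with a log2 change of 1 and 96% of 100 genes with a change of 2 among 13610. The simulated noise was normal and independent between genes, and changes were set only in genes with a mean log2(FPKM + 1) above 2. No simulated library departed in many genes at once, so these percentages are not the power of the fit on the real libraries. Dll4 was compared by an exact permutation test. The interaction used 4 groups of labelled sex and genotype. Positions are from GENCODE M21, and promoters from RefSeq, scanned with Python 3.11.15.

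All 38 members are named. Values per library are given for the HIF alpha subunits, members under an unadjusted p of 0.05, the 10 with the largest log2 fold change, the 5 most abundant and the 5 with the largest range over libraries; library values of other genes were chosen after their values were seen. The members and gene lists were chosen with earlier results of these data known. Alternatives were another pseudocount, no filter, quantile normalization, library weights, labelled sex as a covariate, a replicate block, values as deposited, and leaving out libraries.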

Additional observations from a re-analysis of the deposited data

Results flagged for a closer look

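For 8 genes, 1 library stood so far from the other 3 of its genotype that the gap exceeded the 95% critical value of Dixon's test for 4 samples, out of 78 sets of 4 libraries looked at. Chance alone flags about 1 set in 20. Of the 8, 4 were in Dll4+/- replicate 1, 0 in Dll4+/- replicate 4 and 3 in Dll4+/+ replicate 3.

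In Dll4+/- replicate 1, Hif3a was at 51.9 FPKM with the other Dll4+/- libraries at 1.06 to 2.32, Ddit4 at 151 FPKM with the others at 15.8 to 19.0, Ndrg1 at 20.6 FPKM with the others at 2.67 to 3.62, and Mxi1 at 15.3 FPKM with the others at 7.20 to 7.53. In Dll4+/- replicate 3, Egln1 was at 24.6 FPKM with the others all at 28.0. In Dll4+/+ replicate 3, Car9 was at 0.776 FPKM with the other Dll4+/+ libraries at 1.57 to 1.74, Bhlhe40 at 6.41 FPKM with the others at 9.41 to 9.98, and Pkm at 215 FPKM with the others at 195 to 196. For Egln1 and Pkm the distance was small beside the level, and the others lay unusually close together.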

How the results depend on the processing

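Among single members, 38 of 38 kept the sign of their log2 fold change with no filter, quantile normalization, labelled sex as a covariate and values as deposited. Of these, only quantile normalization could have changed a sign. The filter does not alter a member's own values, no member had a replaced value, and labelled sex is balanced between the genotypes. The median of the members was 0.055 with library weights and 0.035 without Dll4+/- replicates 1 and 4, against 0.18, and 0.13 to 0.23 under the other alternatives. The number of members above 0 was lowest without Dll4+/- replicates 1 and 4, at 23 against 34. That was 60.5% of the 38 members, against 56.2% of genes tested in the same fit. All alternatives stayed within 1.5 times 34, but with 38 members that limit is too wide to show a loss of the excess. The count of members above 0 was added after seeing the data. The cause of the changes below was not tested.

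Members under an unadjusted p of 0.05 numbered 1 with quantile normalization, 1 with library weights and 1 without Dll4+/- replicates 1 and 4, and 0 to 11 on leaving out 1 library, against 3. For all genes these were 933 with no filter, 775 with library weights and 230 to 957 on leaving out 1 library, against 457. At an adjusted p of 0.05, 3 genes passed with library weights and 16 with the replicate block, against 0. Library weights were 0.128 for Dll4+/- replicate 1, 0.245 for Dll4+/- replicate 4 and 0.282 for Dll4+/+ replicate 3.

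Log2 fold changes turned with library weights in Hif1a (0.082), P4ha1 (0.057), Ddit4 (-0.037), Bhlhe40 (-0.19), Aldoc (-0.15) and Slc16a3 (-0.062), and with a pseudocount of 0.1 in Pgam1 (-0.000206). Without Dll4+/- replicates 1 and 4 they turned in Hif1a (0.12), Ankrd37 (-0.29), Ndrg1 (-0.051), P4ha1 (0.057), Ddit4 (-0.11), Mxi1 (-0.039), Bhlhe40 (-0.14), Gpi1 (-0.017), Aldoa (-0.013), Aldoc (-0.21), Tpi1 (-0.047), Pgk1 (-0.019), Pkm (-0.017), Ldha (-0.059) and Slc16a3 (-0.091). On leaving out 1 library they ranged from -0.19 to 0.030 in Hif1a, -0.10 to 0.37 in Epas1, -0.037 to 0.024 in Egln1, -0.045 to 0.12 in Bnip3l, -0.54 to 0.064 in Hilpda, -0.10 to 0.033 in P4ha1, -0.18 to 0.88 in Ddit4, -0.058 to 0.27 in Mxi1, -0.048 to 0.066 in Pfkm, -0.15 to 0.41 in Pfkfb3, -0.064 to 0.055 in Pgk1 and -0.093 to 0.17 in Pgam1. The Dll4 difference was -1.05 to -0.78 on leaving out 1 library and -0.58 without Dll4+/- replicates 1 and 4 (exact permutation p = 0.0667, the smallest that 2 against 4 allow), and leaving out a Dll4+/+ library gave an exact permutation p of 0.0571.

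Replicate numbers 3 and 4 occur in both genotypes. Deviations of same-numbered libraries correlated at r = -0.23 and -0.056 across 13610 genes, and their labelled sexes differ. The labels do not say whether the numbers mark litters or preparations, which these values cannot settle. The main fit did not pair the pups. With the replicate block the log2 fold changes turned in Epas1 (-0.068), Bnip3l (-0.12), Ddit4 (-0.36), Mxi1 (-0.073), Pfkfb3 (-0.078), Tpi1 (-0.014) and Pgam1 (-0.13), and 2 members were under an unadjusted p of 0.05. That fit compares genotypes only within the 4 libraries that share a number.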
